A study of Drosophila melanogaster with 16 samples.

Results

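The genes examined here encode the receptors for neuropeptides and peptide hormones in P1 neurons of Drosophila melanogaster males. They were taken as a list of FlyBase symbols, and all 39 were found among the 17559 genes counted. The comparison asks which of these receptors are read in P1 neurons, and whether their counts differ between naive and mated males. P1 neurons are a male-specific cluster in the brain that expresses fruitless (fru) and promotes courtship. GFP was confined to cells that carry both fruFLP, which removes a stop cassette, and the driver NP2631-Gal4, and all 8 libraries carry UAS>stop>GFP/+ with fruFLP/NP2631-Gal4. For all males the labels give an age of 3 to 6 days and an isolation as virgins of 4 to 6 days at 25 °C. Both ranges are given as stated, and the lowest age lies below the shortest isolation. The 4 mated libraries came from males then paired with a female, and the 4 naive libraries from males left virgin. The labels do not state whether copulation was observed.

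These receptors are membrane proteins that couple to heterotrimeric G proteins and change cAMP, calcium or potassium conductance in the cell that carries them. Peptides reach them from neighbouring terminals or through the haemolymph, so a receptor and its ligand need not lie in connected cells. In flies such receptors adjust feeding, sleep, aggression and courtship to internal state, and several peptides often act on the same neuron.

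The cells were collected by patch pipette in living males, and the study's design text gives 12 cells as the size of the cluster. How many cells and animals went into a library is not stated, so p-values measure only the spread between these libraries. Each library held 6897560 to 13651313 counts and 7099 to 8218 genes at 3 counts or more, the floor used here for a gene to be read at all. The gene fru was read in all 8 libraries at 50.8 to 1144 CPM (counts per 1000000, of the TMM-scaled library size). It stood at 708, 894, 1144 and 344 CPM in naive libraries 1 to 4 and at 218, 50.8, 328 and 542 CPM in mated ones. Mated libraries 1 to 3 thus lay below every naive library for fru, and mated library 4 lay inside the naive range. The gene doublesex (dsx), which also marks these neurons, was read at 34.1 to 167 CPM in naive and 47.6 to 124 CPM in mated libraries. The naive and mated libraries also differed in markers of some other cell types. The 4 neuronal markers elav, nSyb, Syt1 and brp summed to 5822 to 8480 CPM in naive and 3439 to 5702 CPM in mated libraries. The 6 fat body markers summed to 242 to 604 CPM in naive and 1226 to 2935 CPM in mated libraries, and the 7 glial markers to 108 to 314 CPM in naive and 288 to 917 CPM in mated libraries. The 6 photoreceptor markers summed to 17.2 to 56.1 CPM in naive and 95.4 to 552 CPM in mated libraries. All 5 of them that were tested were higher in the mated group, 4 at an unadjusted p under 0.05, and Arr2 passed with a log2 fold change of 3.79 and an adjusted p of 0.0196 from edgeR. The photoreceptor gene trp was at 0 in naive libraries 1 and 4, and chp in mated library 4. The fat body gene Yp2 was at 0 in naive library 2, and the glial gene repo was at 0 in naive library 3 and mated library 2. The sums of the glial markers overlapped between the groups, with naive library 1 at 314 CPM and mated library 3 at 288 CPM. None of the 5 tested glial markers passed the adjusted threshold. Markers of muscle, hemocytes, neurosecretory neurons and insulin-producing neurons also had sums that overlapped between the groups. The 5 muscle markers summed to 11.6 to 37.2 CPM in naive and 16.4 to 90.6 CPM in mated libraries. For the 5 hemocyte markers this was 40.3 to 75.8 and 18.8 to 56.9 CPM, and for the 4 neurosecretory markers 2127 to 2916 and 1717 to 2453 CPM. The 3 markers of insulin-producing neurons, Ilp2, Ilp3 and Ilp5, summed to 0.217 to 26.6 CPM in naive and 0.115 to 43.5 CPM in mated libraries. Their sum was highest in naive library 2 and mated library 2, and at most 2.54 CPM in the other libraries. The part of these cells in the receptor values was not tested. In such bulk samples, fewer cells of a type and less RNA per cell cannot be told apart.

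Of the 39 receptor genes, 21 reached 3 counts in all 8 libraries, or 53.8%, against 4986 of all 17559 genes, or 28.4%. A further 3 were read in 7 libraries, 8 in 4 to 6 libraries and 7 in 1 to 3 libraries, and none was missed in every library. At a floor of 10 counts, 16 receptor genes were read in all 8 libraries. Single libraries read between 27 and 35 of the receptor genes. Naive libraries 1 to 4 read 35, 27, 28 and 33 of them, and mated libraries 1 to 4 read 30, 30, 33 and 31. Together the 39 genes took 0.0789% to 0.100% of a library's counts. Their summed level was 880.0 to 1100.2 CPM in naive and 699 to 963 CPM in mated libraries, and these ranges overlapped.

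**Figure D1:**
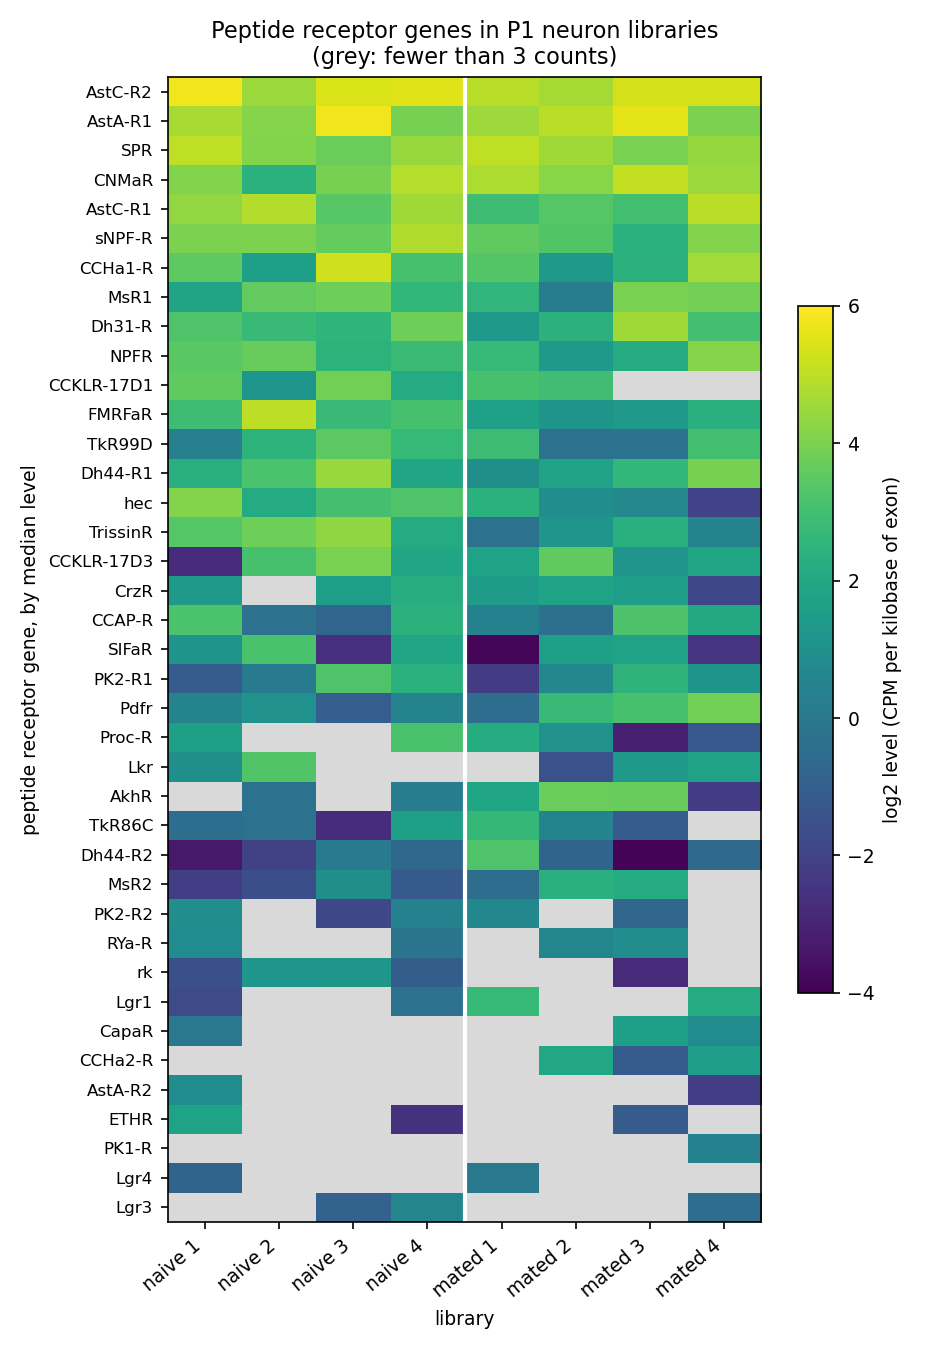
Level of each of the 39 receptor genes (rows, ordered by median) in each of the 8 libraries (columns), as log2 of CPM per kilobase of exon. Grey cells hold fewer than 3 counts, and the 21 genes read in all 8 libraries lie mainly in the upper rows.

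The receptors with the highest levels were those for the peptides allatostatin C and allatostatin A, the sex peptide receptor SPR and the CNMamide receptor CNMaR. Levels are compared between genes in CPM per kilobase of exon (CPM per kb). AstC-R2 had the highest median at 40.7 CPM per kb, with a range of 22.8 to 54.6. This placed it at the 77.9th percentile of the 6938 tested genes with a known length. AstA-R1 followed at 24.6 CPM per kb (15.5 to 55.8), SPR at 21.6 (13.4 to 32.9) and CNMaR at 20.6 (5.16 to 34.1). AstC-R1 had a median of 15.6 CPM per kb and sNPF-R of 14.3, at the 57.5th and 55.6th percentiles. CCHa1-R, MsR1, Dh31-R and NPFR completed the first 10, with medians of 9.35, 9.13, 7.45 and 6.76 CPM per kb. No neighbouring pair among the first 15 genes of this order was ordered the same way in all 8 libraries, so the places of neighbours did not differ beyond the spread between libraries.

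**Figure D2:**
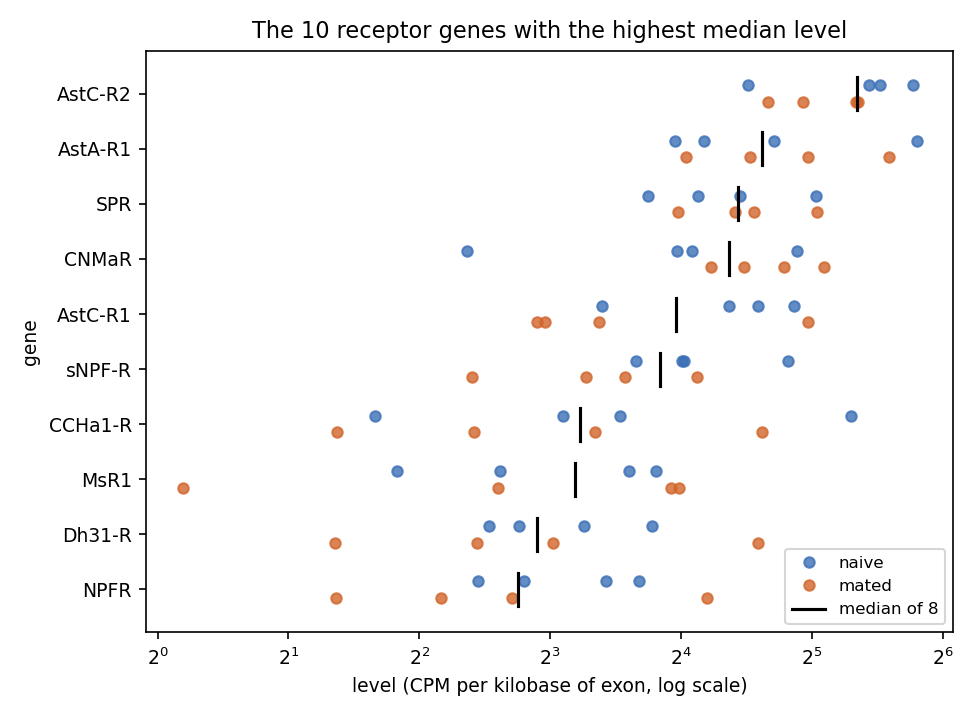
Level in CPM per kilobase of exon (log axis) of the 10 receptor genes with the highest median, with a point per library and a line at the median of 8. Naive and mated points overlap for each of the 10 genes, and AstC-R2 has the highest median at 40.7.

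Mated and naive libraries were compared with edgeR's quasi-likelihood test over all genes. None of the 31 receptor genes with enough counts to be tested passed an adjusted p of 0.05, where 27 of 7090 tested genes did, or 0.381%. The smallest adjusted p among the receptor genes was 0.260. At an unadjusted p under 0.05 there were 5, or 16.1% of the 31, against 10.6% of all tested genes, and there were 3 without mated library 2 or mated library 3. Of the 5, 2 genes were higher in mated libraries, where 5.54% of all tested genes were, and 3 were lower, where 5.02% were. The naive and mated libraries did not overlap for 2 receptor genes, FMRFaR and rk, against 7.64% of tested genes. Of these, rk passed the filter on counts through its naive libraries alone, where it was high. The fitted log2 fold change was positive for 11 and negative for 20 of the 31, while 49.5% of all tested genes were positive. Its median was -0.38 over the receptor genes and -0.01 over all tested genes. Leaving out a library gave medians from -0.38 to -0.04. The median was -0.04 without naive library 3, where 16 of 34 tested receptor genes were positive. It was -0.15 without naive library 1, -0.21 without mated library 2 and -0.24 without naive library 4 or mated library 1. Without naive library 2, mated library 3 or mated library 4 it was -0.29, -0.35 and -0.38. The filter was reapplied each time and kept 31 to 35 receptor genes, so these medians are not over the same genes. The median 95% interval reached 2.45 log2 units to either side, so for a typical receptor gene a change of several fold was not detectable with these libraries. The 8 untested genes were AstA-R2, Lgr1, Lgr3, Lgr4, CCHa2-R, PK1-R, CapaR and ETHR.

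**Figure D3:**
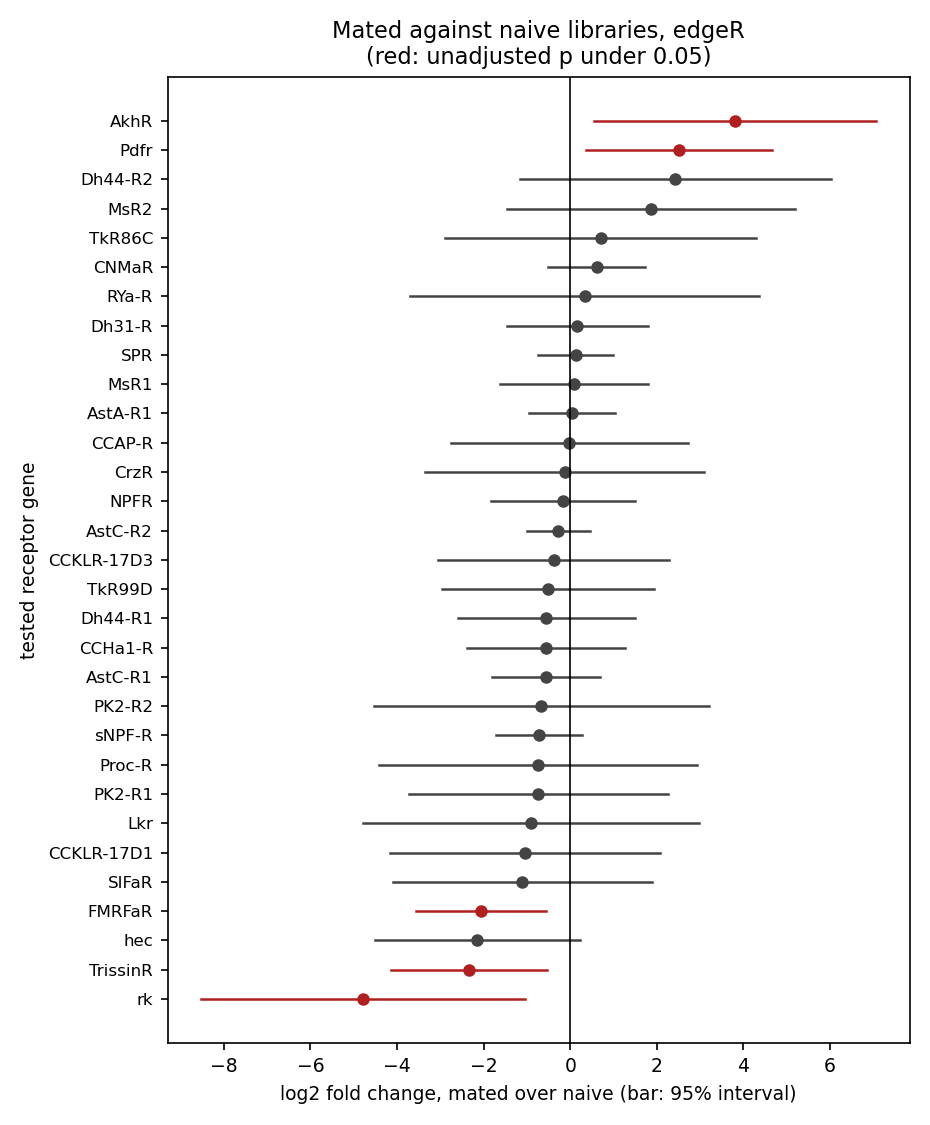
Fitted log2 fold change (mated over naive) of the 31 tested receptor genes, with 95% intervals from edgeR. The 5 genes in red had an unadjusted p under 0.05, and none of the 31 passed after adjustment.

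The 8 receptors of the neuropeptide Y-like, SIFamide, tachykinin and cholecystokinin-like families were all tested, and none passed. The receptor of short neuropeptide F, sNPF-R, which acts in feeding and growth, lies on chromosome 3L at 20058511 to 20089007 in dm6 and was read at 76.4, 77.2, 59.7 and 134 CPM in naive libraries 1 to 4. In mated libraries 1 to 4 it stood at 56.4, 45.8, 25.1 and 82.4 CPM, so the groups overlapped only through mated library 4. Its mean in CPM was 86.8 ± 32.3 for the naive and 52.5 ± 23.9 for the mated group (SD, n = 4 each). The log2 fold change was -0.73 with a standard error (SE) of 0.46, and its 95% interval ran from -1.71 to 0.26. NPFR, the receptor of neuropeptide F, a peptide tied to feeding and to male mating drive, was read at 34.6, 41.1, 17.6 and 22.4 CPM in naive libraries. Mated libraries had 21.0, 8.29, 14.4 and 59.1 CPM, a wider spread that took in every naive value. The fold change was -0.17 ± 0.78 (SE) on the log2 scale.

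SIFaR, the receptor of SIFamide, which restrains male courtship, was among 5 receptor genes that differed by over 100-fold between their highest and lowest libraries. Its values were 11.3, 43.5, 0.820 and 19.2 CPM in naive and 0.345, 15.9, 17.3 and 0.919 CPM in mated libraries. High and low libraries occurred in both groups, and the ratio of highest to lowest, with counts under 3 set at 3, was 126. The drosulfakinin receptors CCKLR-17D1 and CCKLR-17D3 lie close together on the X chromosome and are relatives of the vertebrate cholecystokinin receptors. CCKLR-17D1 was read at 37.9, 7.70, 47.2 and 14.0 CPM in naive and at 27.1, 24.3, 0 and 0.131 CPM in mated libraries. Mated libraries 3 and 4 thus held 0 and 1 counts of a gene that the other 6 libraries read at 48 counts or more. CCKLR-17D3 stood at 0.326, 18.8, 34.9 and 8.11 CPM in naive and at 7.82, 26.0, 5.15 and 8.53 CPM in mated libraries, with naive library 1 alone near the floor. The ratio of their per-length levels within a library ranged from -5.08 to 6.34 on the log2 scale, and CCKLR-17D1 was the higher in 3 of 8 libraries.

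Of the tachykinin receptors, TkR99D was the more abundant in 7 of 8 libraries. It was read at 3.69, 15.7, 32.0 and 18.5 CPM in naive and at 20.8, 2.42, 2.54 and 22.8 CPM in mated libraries. TkR86C, which also responds to natalisin, stood at 2.50, 2.73, 0.492 and 10.4 CPM in naive and at 20.1, 4.58, 1.52 and 0 CPM in mated libraries, with its highest and lowest values both in the mated group. RYa-R, the RYamide receptor, reached the floor in 4 libraries and at most 4.35 CPM. The median log2 fold change of this group of 8 was -0.45.

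The allatostatin receptors resemble the galanin receptors (AstA-R1 and AstA-R2) and the somatostatin receptors (AstC-R1 and AstC-R2) of vertebrates. AstC-R2, at 18485137 to 18502557 on chromosome 3L, was read at 204, 85.2, 162 and 171 CPM in naive and at 114, 94.5, 153 and 151 CPM in the mated ones. The groups overlapped, and its biological coefficient of variation, 0.385, was the lowest of the 31 tested receptor genes. Its log2 fold change was -0.28 ± 0.34 (SE), with a 95% interval of -1.01 to 0.45. AstC-R1 lies close by on the same chromosome arm, at 18560258 to 18576326, and stood at 59.9, 84.9, 30.7 and 69.9 CPM in naive and at 21.7, 30.2, 22.7 and 91.4 CPM in mated libraries. It was lower than AstC-R2 per length in 7 of 8 libraries, the exception being naive library 2. The mean difference between them was -1.26 ± 0.93 log2 units (SD over 8 libraries).

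AstA-R1, at 3574536 to 3666724 on the X chromosome, was read at 96.7, 67.1, 207 and 57.4 CPM in naive and at 85.2, 116, 178 and 60.9 CPM in the mated ones. The group means were 107 ± 68.5 and 110.0 ± 50.6 CPM (SD, n = 4 each), and the log2 fold change was 0.04 with a 95% interval of -0.94 to 1.03. Its paralog AstA-R2 held 39, 1, 0 and 1 counts in naive and 0, 1, 0 and 4 counts in mated libraries, so it was read in naive library 1 and mated library 4 only. AstA-R1 was higher in 8 of 8 libraries, by 6.95 ± 1.58 log2 units per length (SD) with counts under 3 set at 3. Among the 7 pairs of receptor genes for the same peptide type, only this pair had the same order in all 8 libraries.

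**Figure D4:**
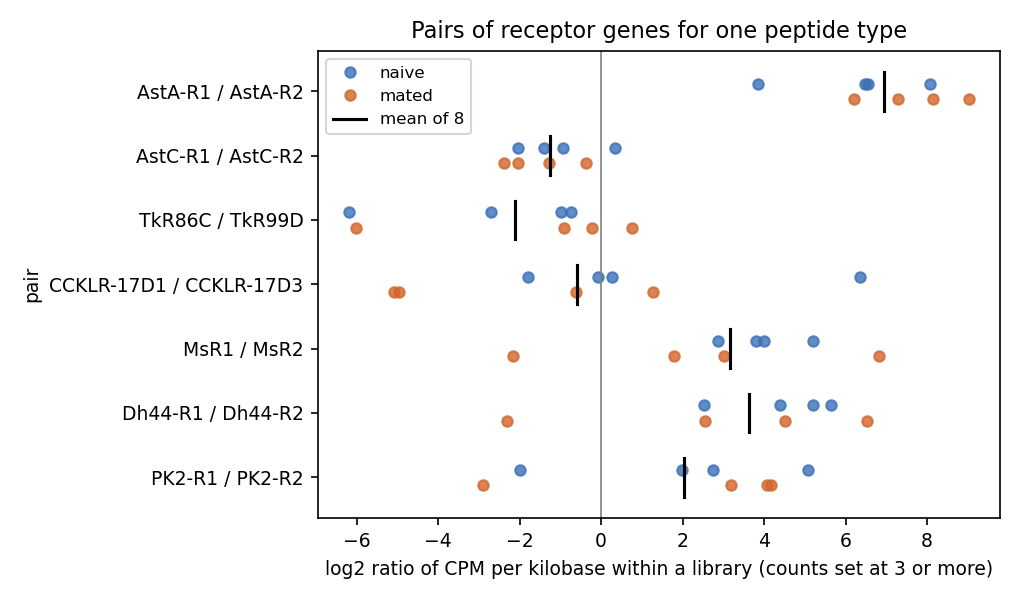
Log2 ratio of CPM per kilobase between both receptor genes of a pair, within each library, with naive and mated points apart and a bar at the mean of 8. AstA-R1 over AstA-R2 is above 0 in all 8 libraries, while the other 6 pairs have points on both sides of 0.

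The receptors of myosuppressin, FMRFamide, sex peptide and proctolin included FMRFaR, whose naive and mated libraries did not overlap. FMRFaR binds FMRFamide-related peptides, which modulate muscle and neurons, and lies on chromosome 3L at 3001716 to 3011860. It was read at 31.7, 137, 28.9 and 35.6 CPM in naive and at 13.8, 9.41, 10.9 and 21.7 CPM in mated libraries. All 4 mated libraries lay below the lowest naive library, and naive library 2 stood far above the other three naive ones. The naive mean was 58.3 ± 52.6 CPM and the mated mean 14.0 ± 5.45 CPM (SD, n = 4 each). The log2 fold change was -2.06 ± 0.70 (SE), with a 95% interval of -3.56 to -0.56, an unadjusted p of 0.010 and an adjusted p of 0.260 from edgeR. Over 18 alternative settings the adjusted p ran from 0.0613 to 0.763, and without naive library 2 the log2 fold change was -1.21 and the unadjusted p above 0.05.

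SPR mediates the response of mated females to sex peptide and also binds myoinhibitory peptides in both sexes. It lies at 5446656 to 5494012 on the X chromosome and was read at 122, 65.1, 50.0 and 81.7 CPM in naive and at 123, 87.9, 58.7 and 79.3 CPM in the mated ones. The groups covered almost the same range, and the log2 fold change was 0.13 with a 95% interval of -0.74 to 0.997. The gene frma overlaps 26.8% of its exon length on the opposite strand and held 0 to 155 counts, against 305 to 1123 for SPR. Whether the counting used strand is not given in the sources used here, so reads in the overlap cannot be assigned. The myosuppressin receptor MsR1 stood at 12.6, 43.0, 49.5 and 21.7 CPM in naive and at 21.5, 4.06, 56.0 and 53.7 CPM in mated libraries, with a log2 fold change of 0.09 ± 0.80 (SE). MsR2 was read at 0.651, 0.963, 5.58 and 1.29 CPM in naive and at 2.18, 15.0, 13.4 and 0.263 CPM in mated libraries. MsR1 was the higher of both per length in 7 of 8 libraries, the exception being mated library 2. The proctolin receptor Proc-R reached the floor in 6 libraries and at most 32.7 CPM.

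All 5 secretin-class (class B) receptors were read in every library. Pdfr, the receptor of pigment-dispersing factor, through which clock neurons signal, lies at 2552206 to 2578640 on the X chromosome. It stood at 6.41, 9.63, 2.30 and 6.43 CPM in naive and at 3.45, 31.3, 39.3 and 67.5 CPM in mated libraries. Mated libraries 2 to 4 lay above every naive library, and mated library 1 lay inside the naive range. The log2 fold change was 2.51 ± 1.01 (SE), with a 95% interval of 0.36 to 4.66, an unadjusted p of 0.025 and an adjusted p of 0.370 from edgeR (0.0922 to 0.710 over 18 alternatives). Without mated library 3 or mated library 4 the unadjusted p was above 0.05. Its ligand gene Pdf held at most 1 count in any library. The gene hec, a calcitonin-receptor relative required for normal male courtship, was read at 46.4, 11.6, 21.8 and 24.6 CPM in naive and at 13.6, 4.92, 4.28 and 0.656 CPM in mated libraries. Only mated library 1 reached into the naive range, and the log2 fold change was -2.15 ± 1.11 (SE) with an unadjusted p of 0.072 and an adjusted p of 0.531 from edgeR.

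Dh31-R, the receptor of the calcitonin-like diuretic hormone 31, stood at 31.4, 22.3, 19.0 and 45.0 CPM in naive and at 8.39, 17.8, 79.0 and 26.6 CPM in mated libraries. Mated libraries held both its highest and its lowest value, and the log2 fold change was 0.16 ± 0.76 (SE). The corticotropin-releasing-factor-like peptide Dh44 has a pair of receptors. Dh44-R1 was read at 12.3, 22.1, 54.6 and 9.01 CPM in naive and at 4.83, 8.38, 15.1 and 38.5 CPM in mated libraries. Dh44-R2 stood at 0.326, 0.802, 3.44 and 2.06 CPM in naive and at 31.5, 1.90, 0.217 and 2.23 CPM in mated libraries, so that mated library 1 alone was high. In that library Dh44-R2 exceeded Dh44-R1 per length, and in the other 7 the order was opposite. The genes fdl and CG34234 overlap 16.4% and 16.8% of the exon length of Dh44-R2 on the opposite strand. The gene fdl held 359 counts in mated library 1, its highest value, against 274 for Dh44-R2, and 103 to 222 counts in the other 7 libraries; CG34234 held 0 counts in all 8.

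None of the 4 leucine-rich-repeat receptors was read in every library, and only rk could be tested. The gene rk encodes rickets, the receptor of bursicon, known for wing expansion and cuticle tanning after eclosion, and lies on chromosome 2L at 13982743 to 14001248. It held 17, 80, 80 and 20 counts in naive and 0, 1, 11 and 1 counts in mated libraries, or 1.85 to 13.1 CPM and 0 to 0.797 CPM. The groups did not overlap, and naive libraries 2 and 3 were the highest. The filter on counts kept rk through its naive libraries alone, so its place among the tested genes rested on the group where it was high. The log2 fold change was -4.79 ± 1.74 (SE), with a 95% interval of -8.52 to -1.05, an unadjusted p of 0.016 and an adjusted p of 0.305 from edgeR (0.0942 to 0.702 over 16 alternatives). Without mated library 2 the unadjusted p was above 0.05. The gene NimC2, which overlaps 9.8% of its exon length on the opposite strand, held 3 counts in mated library 3 and 0 in the others. Lgr1, the receptor of the glycoprotein hormone GPA2/GPB5, reached 184 counts in mated library 1 and 110 in mated library 4, 9 and 21 in naive libraries 1 and 4, and 0 elsewhere. Lgr3, the receptor of the relaxin-like peptide Ilp8, was read in 3 libraries, with 10 counts in naive library 3, 34 in naive library 4 and 17 in mated library 4. On the opposite strand, CG4730 overlaps 4.8% of its exon length and held 137 counts in naive library 4 and 0 elsewhere, and lncRNA:CR45225 overlaps 29.7% and held 0 in all 8. Lgr4 was read in naive library 1 with 16 counts and in mated library 1 with 26. The gene CG12096 overlaps 29.2% of the exon length of Lgr4 on the opposite strand and held 282 and 217 counts in those libraries. It also held 189 counts in mated library 3 and 4 to 49 in the remaining ones, where Lgr4 was at 0.

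The metabolic hormone receptors differed widely between libraries. AkhR, the receptor of adipokinetic hormone, a glucagon-like peptide that mobilises stores of the fat body, lies on chromosome 2L at 6711286 to 6716186. It held 2, 17, 1 and 29 counts in naive and 106, 487, 564 and 5 counts in mated libraries, or 0.164 to 3.73 CPM and 0.656 to 42.0 CPM. Mated libraries 1 to 3 were above every naive library, and mated library 4 was within the naive range. The log2 fold change was 3.80 ± 1.52 (SE), with a 95% interval of 0.54 to 7.06, an unadjusted p of 0.025 and an adjusted p of 0.370 from edgeR (0.0612 to 0.719 over 18 alternatives). Without naive library 1, mated library 2 or mated library 3 the unadjusted p was above 0.05. The summed fat body markers were 2935, 2159, 1226 and 1617 CPM in mated libraries 1 to 4 and at most 604 CPM in naive ones, and their part in the AkhR counts was not tested. All 6 fat body markers tested were higher in mated libraries at an unadjusted p under 0.05 in edgeR, and apolpp passed the adjusted threshold. CrzR, the corazonin receptor, was read in 7 libraries, at 0 CPM in naive library 2 and at 0.919 to 15.2 CPM elsewhere. CCAP-R, the receptor of crustacean cardioactive peptide, was read in all 8 libraries at 1.80 to 27.8 CPM.

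CCHa1-R, a bombesin-receptor relative for CCHamide-1, stood at 30.6, 8.34, 104 and 22.6 CPM in naive and at 26.8, 6.82, 14.1 and 64.9 CPM in mated libraries. Naive library 3 and mated library 4 were the highest of their groups, and the log2 fold change was -0.56 ± 0.85 (SE). CCHa2-R held 137, 19 and 68 counts in mated libraries 2, 3 and 4 and 0 or 1 in the other 5 libraries, and it was not tested. The markers of insulin-producing neurons summed to 43.5, 2.54 and 0.131 CPM in mated libraries 2, 3 and 4, and to 26.6 CPM in naive library 2. Their part in the CCHa2-R counts was not tested. Among the pyrokinin, Capa and ecdysis-triggering-hormone receptors, PK2-R1 alone was read in every library, at 1.30, 3.05, 26.1 and 14.4 CPM in naive and 0.575, 4.40, 15.6 and 6.17 CPM in mated libraries. PK2-R2, a neighbouring gene on chromosome 3R that also answers hugin pyrokinins, stood at 5.54, 0, 0.820 and 3.86 CPM in naive and 4.60, 0, 1.81 and 0 CPM in mated libraries. PK2-R1 was higher per length in 6 of 8 libraries, and naive library 1 and mated library 1 had the opposite order. PK1-R exceeded 1 count only in mated library 4, with 25 counts. CapaR, known from the Malpighian tubule, was read in 3 libraries at 17 to 79 counts, and ETHR in 3 libraries at 6 to 145 counts.

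TrissinR, the receptor of the cysteine-rich peptide trissin, lies on chromosome 2L at 5824004 to 5856767 and was read at 37.6, 50.9, 72.7 and 16.0 CPM in naive libraries. In mated libraries it stood at 3.10, 8.46, 18.5 and 4.99 CPM. Mated library 3 was above naive library 4, and the other three mated libraries lay below every naive library. The means were 44.3 ± 23.8 and 8.76 ± 6.85 CPM (SD, n = 4 each). The log2 fold change was -2.33 ± 0.84 (SE), with a 95% interval of -4.13 to -0.53, an unadjusted p of 0.015 and an adjusted p of 0.297 from edgeR (0.0613 to 0.702 over 18 alternatives). Without naive library 3 the unadjusted p was above 0.05. CNMaR, the receptor of CNMamide, a peptide that in flies signals a lack of amino acids, was read at 45.9, 14.0, 42.3 and 79.9 CPM in naive and at 74.6, 50.8, 92.3 and 60.5 CPM in mated libraries. This gave a log2 fold change of 0.61 with a 95% interval of -0.51 to 1.74, and the groups overlapped. The leucokinin receptor Lkr reached the floor in 5 libraries and at most 28.6 CPM. When the number in the library's title was added as a factor, all 5 genes had an unadjusted p above 0.05, and none of all 7090 tested genes passed the adjusted threshold. That fit has 2 residual degrees of freedom, and its fold changes rest on 1 naive and 2 mated libraries with the title number 1119. They were 3.21 for Pdfr, 7.22 for AkhR, -4.95 for rk, -2.75 for TrissinR and -1.22 for FMRFaR on the log2 scale, each with the sign it had without the factor.

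**Figure D5:**
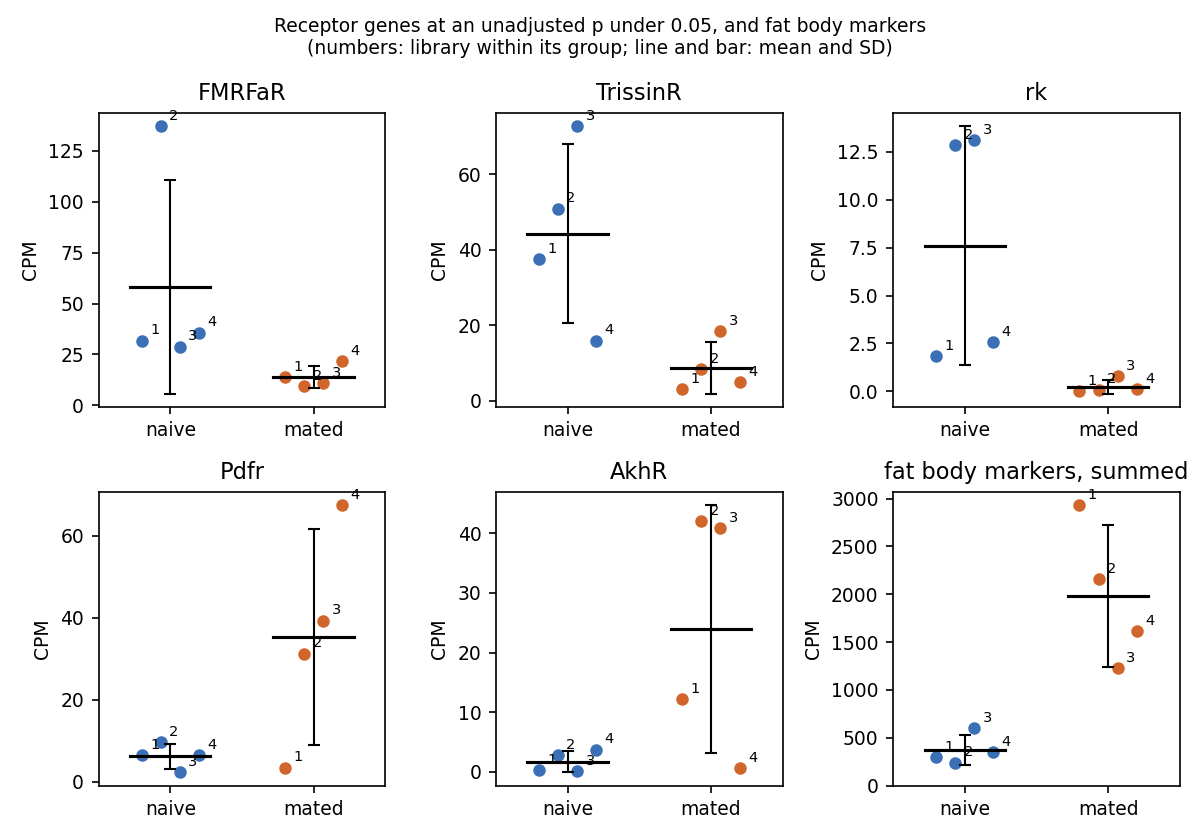
CPM in each library of the 5 receptor genes with an unadjusted p under 0.05, and the summed CPM of 6 fat body markers, with the mean and SD of each group and the library's number beside each point. FMRFaR and rk do not overlap between groups, mated library 1 is low for Pdfr, mated library 4 is low for AkhR, and the summed markers are at most 604 in naive and at least 1226 in mated libraries.

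Libraries of the same group differed widely in single receptor genes, while both runs of a library agreed. The biological coefficient of variation had a median of 1.06 over the 31 tested receptor genes and of 0.831 over all tested genes. These medians are not matched for abundance. At the gene's own abundance, edgeR's fitted trend was 0.516 for SPR and 0.768 for FMRFaR, against their values of 0.451 and 0.701. For AstA-R1 and CCKLR-17D1 the trend was 0.470 and 1.03, against 0.490 and 1.32. Receptor genes thus lay on both sides of the trend, and most of the 31 tested ones lay below it. Each library was run in 2 lanes. Over 228 gene and library pairs with 10 counts or more, the A and B runs agreed within sampling noise: chi-square per degree of freedom was 0.972, and 4.39% of pairs differed by over 2 SD. The 5 genes that differed by over 100-fold between libraries were CCKLR-17D1 with 217, Dh44-R2 with 145, AkhR with 129, SIFaR with 126 and CCKLR-17D3 with 107.

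Genes for the peptides themselves were also read, so some ligands and their receptors occurred in the same libraries. Of 36 ligand and receptor pairs, 10 had both genes at 3 counts or more in all 8 libraries. Among them were sNPF with sNPF-R, NPF with NPFR, AstC with both of its receptors, Dh44 with both of its receptors, and Dh31 with Dh31-R. The others were Ms with MsR1, SP with SPR and CCAP with CCAP-R, and these rest partly on ligand counts near the floor. SP held 4 to 13 counts in every library, CCAP 4 to 12 outside naive library 1, and Ms 4 in naive library 3. The ligand gene sNPF stood at 147 to 625 CPM, Dh44 at 228 to 542 CPM and Dh31 at 89.4 to 306 CPM across the 8 libraries. In contrast, Pdfr and PK2-R1 were read in all 8 libraries while their ligand genes Pdf and Hug reached 3 counts in none, and the same held for Lk with Lkr, and Burs with rk, in the 5 libraries that read those receptors. CCAP was at 1463 CPM in naive library 1 and at 0.515 to 1.38 CPM in the other 7. None of the 12 tested genes of the 33 ligands had an unadjusted p under 0.05, and their median log2 fold change was 0.09.

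The 22 genes of G-protein signalling below the receptors included genes with far higher levels than any receptor. Galphao had a median of 249 CPM per kb, Gbeta13F of 303 and Ggamma1 of 785, against 40.7 for the highest receptor, AstC-R2. None of the 20 tested passed after adjustment. Their median log2 fold change was -0.38, with 3 positive and 17 negative values, while 49.5% of all tested genes were positive. At an unadjusted p under 0.05 in edgeR, Gbeta5 was higher in mated libraries with a log2 fold change of 0.78. The genes cta, Gbeta13F, Ggamma30A, Plc21C and the adenylyl cyclase gene rut were lower at that level, with -0.90, -0.51, -0.72, -0.54 and -0.79. These were 1 higher and 5 lower of the 20, where 5.54% of all tested genes were higher and 5.02% lower. The 4 neuronal markers had a median log2 fold change of -0.60 in the same comparison, and their part in these values was not tested.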

How the data were processed

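RNA from P1 neurons of naive and mated males was sequenced as 16 entries, the A and B runs of 8 libraries. Per the labels' protocols, a SMARTer low-input kit gave cDNA that was amplified for 15 rounds, sheared to 200 bp and amplified for 12 further rounds. Reads after so many rounds are not independent molecules. The authors deposited raw read counts per gene for each run and their sum, and that sum was checked against A plus B, with 0 mismatches. The submitters' processing notes name cutadapt, HISAT2 2.2.1, featureCounts 1.6.2, MultiQC, edgeR, limma and DESeq2, and the builds dm6 and BDGP6, with no role or order. The strand setting, the treatment of reads with several matches and the annotation release are not given in the sources used here. Columns of other samples numbered 0.

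Groups came from the treatment label. The A and B counts of a library were summed, giving 4 naive and 4 mated libraries. Gene names came from the supplied tables, which matched 17252 of 17559 identifiers. Positions and the union of exons came from Ensembl BDGP6 release 115, in dm6 coordinates. CPM is counts per 1000000 of the TMM-scaled library size, and CPM per kb divides it by exon length.

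The test was edgeR 4.0.16 in R 4.3.3 over all genes kept by filterByExpr, with TMM scaling, glmQLFit with robust estimation, glmQLFTest and group as the only term. The threshold was a Benjamini-Hochberg adjusted p of 0.05 over the 7090 tested genes. The fitting script was tested on simulated data. Alternatives were library-size, TMMwsp and upper-quartile scaling, DESeq2 1.42.0, no filter or a filter at 3 counts, no robust option, the title number as a factor, each run alone and each library left out in turn. Pairs of receptor genes are described with no test, with counts under 3 set at 3. Alternatives for those pairs were chosen after seeing the data. Python 3.11.15 was used for the other steps.

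The members, the gene lists and the tests were chosen with earlier results of these data known. Values in every library are given for the 10 genes with the highest median level per length, for genes with an unadjusted p under 0.05 or with groups that do not overlap, for genes differing by over 100-fold between libraries, and for pairs of genes for the same peptide. The gene hec was added after its values were seen. The listed markers Phm and FASN1 were not analysed here.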

Additional observations from a re-analysis of the deposited data

Results flagged for a closer look

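In groups of 4 libraries, a library was marked where its gap to the nearest other library took up a larger part of the group's range than Dixon's 95% critical value. This held in 14 of 75 groups with a library at 10 counts or more, or 18.7%. The rate of about 5% (1 in 20) that chance gives holds for normally distributed values, and these are unlogged CPM with many zeros, so their chance rate is not known. In all 14 the marked library was the highest of its group.

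Among receptors read in all 8 libraries, the marked values were FMRFaR at 137 CPM in naive library 2, AstC-R1 at 91.4 CPM in mated library 4, Dh44-R2 at 31.5 CPM in mated library 1 and CCKLR-17D3 at 26.0 CPM in mated library 2. MsR2, read in 7 libraries, was marked at 5.58 CPM in naive library 3, and rk at 0.797 CPM in mated library 3. The others were sparsely read genes. In naive library 1 these were ETHR at 15.7 CPM, AstA-R2 at 4.23 CPM, CapaR at 1.85 CPM and Lgr4 at 1.74 CPM. In mated library 1 Lgr4 was marked at 2.99 CPM, and in mated library 3 ETHR at 2.10 CPM. In mated library 4 PK1-R was marked at 3.28 CPM and Lgr3 at 2.23 CPM.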

How the results depend on the processing

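No receptor gene passed the adjusted threshold in any of 18 alternative settings. The number of all genes past it was 27 and became 46 with library-size scaling, 234 with DESeq2, 56 without a filter, 47 with the B run alone, 0 with the title number as a factor, and 6 to 53 when each library was left out in turn. Receptor genes at an unadjusted p under 0.05 numbered 5, then 0 with the title number as a factor and 3 to 7 when each library was left out, with 3 without mated library 2 or mated library 3. With the title number as a factor the log2 fold change of NPFR was 0.015, that of AstA-R1 -0.65 and that of MsR1 -0.35, each opposite in sign, while Pdfr (3.21), AkhR (7.22), rk (-4.95) and TrissinR (-2.75) kept theirs at a larger size and FMRFaR (-1.22) at a smaller one. That fit leaves 2 residual degrees of freedom. Leaving out each library in turn gave ranges that crossed 0 for NPFR (-0.99 to 0.12), AstA-R1 (-0.26 to 0.57), MsR1 (-0.25 to 0.46), SPR (-0.083 to 0.40), CCHa1-R (-1.38 to 0.45) and Dh31-R (-0.72 to 0.48). The causes were not tested. The median log2 fold change of the receptor genes stayed between -0.49 and -0.04, and library-size scaling moved the median of all genes to 0.17. Receptor genes read in all 8 libraries numbered 16 to 23 over the alternatives, and 9 or 10 of the 10 genes with the highest median were shared. Each mean ratio of a pair moved by less than its SD. The mean log2 ratio of CCKLR-17D1 over CCKLR-17D3, -0.58 with an SD of 3.65, changed sign without mated library 3 (0.064) or mated library 4 (0.045). The other pairs kept their sign. No paired analysis was possible because the labels do not say which naive library belongs with which mated library. Title number 1119 alone holds both groups, with 1 naive and 2 mated libraries, so the title number and the group largely cannot be told apart. Thinned to the shallowest total, 19 receptor genes were read in all 8 libraries, against 21 at full depth. At full depth, 16 receptor genes were at 0 in some library. CCKLR-17D1 was at 0 in mated library 3, the deepest library with 13651313 counts. The part of depth in these zeros was not tested.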
